A study of Mus musculus with 3 samples.

Results

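The Id genes and the regulators of bone morphogenetic protein (BMP) signalling around them were followed through 3 lines of mouse OP9 cells. The set was chosen by gene symbol and holds 10 genes: Id1, Id2, Id3 and Id4, the inhibitory Smads Smad6 and Smad7, the ligand Bmp4, the receptor Bmpr1a, and the secreted antagonists Fst and Grem1. Of these, 9 were matched by their current symbol or an older synonym, each to 1 of the 23473 probes of the array, and Grem1 was matched to none and is not analysed here. All 9 probes had a value on every array and were bright enough to be compared.

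OP9 is a stromal line taken from newborn calvaria of the mouse strain B6C3Fe-a/a-Csf1op/Csf1op, so all 3 lines share the Csf1op mutation. The OP9-DL line expresses green fluorescent protein (GFP) and the Notch ligand Delta-like 1, the OP9-GFP line expresses GFP alone, and the OP9 line is labelled as the control. All were kept in the same medium with 20% serum and received no treatment. The sources used here do not say how GFP and Delta-like 1 were introduced, which promoter drives them or whether a line is a single clone. Each line had 1 array, so no difference below has a replicate check or a test, and what Delta-like 1 or GFP does cannot be told apart from what else differs between the cultures.

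BMP ligands bind pairs of type I and type II receptor kinases, which phosphorylate the receptor-regulated Smads. These join Smad4, enter the nucleus and switch on target genes, among which the Id genes are the classic direct targets. Id proteins have a helix-loop-helix domain but no basic region: they pair with E proteins and other basic helix-loop-helix factors and keep them off DNA. In stromal cells BMP signalling is known for favouring bone and fat differentiation, and Id proteins for holding cells in an undifferentiated, dividing state. Smad6 and Smad7 are feedback inhibitors, and follistatin (Fst) and gremlin (Grem1) bind ligands outside the cell.

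Upstream sequences of Id2, Id3 and Id4 are shown because the Id genes were all higher in OP9-DL cells than in OP9 cells but by unequal amounts; that of Id1 was not used here. RefSeq sequences on the build GRCm38.p6 were matched for 7 of the 10 genes, and each stretch printed is the 250 bases before the transcript start, 5′ to 3′ on the gene's strand, for Id2 (chr12:25096093-25096342, minus strand), Id3 (chr4:136143572-136143821, plus strand) and Id4 (chr13:48260866-48261115, plus strand). Capitals mark GGCGCC, a motif known to be bound by BMP-activated Smads, which reads the same on both strands.
Id2: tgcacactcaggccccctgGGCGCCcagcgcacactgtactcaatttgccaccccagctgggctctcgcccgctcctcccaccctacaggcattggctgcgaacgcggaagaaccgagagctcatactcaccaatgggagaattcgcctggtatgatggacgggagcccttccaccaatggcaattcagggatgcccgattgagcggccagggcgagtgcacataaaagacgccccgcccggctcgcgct
Id3: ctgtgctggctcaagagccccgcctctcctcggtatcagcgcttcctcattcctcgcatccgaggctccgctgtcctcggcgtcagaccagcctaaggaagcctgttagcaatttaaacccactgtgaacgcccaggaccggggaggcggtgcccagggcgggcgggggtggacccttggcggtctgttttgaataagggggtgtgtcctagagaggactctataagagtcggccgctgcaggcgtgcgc
Id4: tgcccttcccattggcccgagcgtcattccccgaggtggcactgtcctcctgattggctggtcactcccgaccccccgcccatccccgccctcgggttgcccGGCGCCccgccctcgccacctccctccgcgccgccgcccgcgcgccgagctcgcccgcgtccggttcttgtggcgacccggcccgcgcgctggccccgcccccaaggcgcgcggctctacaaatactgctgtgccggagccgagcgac
The Id2 stretch held GGCGCC once, beginning 231 bases before the start, the Id4 stretch held it once, beginning 148 bases before the start, and the Id3 stretch did not hold it. The motif is in 9.59% of 32851 promoter stretches of the same length. The core Smad box GTCT, searched on both strands and not overlapping GGCGCC here, occurred 1 time in the Id2 stretch, 2 times in the Id3 stretch and 0 times in the Id4 stretch, against 82.9% of all stretches with at least 1 match. CACGTG, 1 form of the E-box, is held by 6.02% of all stretches and was in none of these 3. Other forms of the E-box were not searched, so their absence cannot be read from this. The G and C content was 62.8% for Id2, 62.8% for Id3 and 75.6% for Id4, against a median of 52.4% over all stretches. These matches describe letters in a window and were not tied to any binding measurement.

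Dll1 was highest in the line labelled as carrying it, and most stromal markers were bright. The Dll1 probe, for Delta-like 1, read 333.3 in OP9-DL cells, 20.5 in OP9-GFP cells and 14.0 in OP9 cells. Intensities are on the deposited linear scale, whose median is 20 on each array, and 15581 probes with a mean intensity of at least about 6.13 were compared. Of 10 stromal markers 8 were compared, with summed intensities over all 10 of 8605 in OP9-DL, 12682 in OP9-GFP and 12832 in OP9, and they did not run one way. Col1a2 (5145.3 in OP9-DL, 5922.4 in OP9-GFP and 6612.6 in OP9), Pdgfra (127.1 in OP9-DL, 166.1 in OP9-GFP and 800.6 in OP9) and Pdgfrb (221.1 in OP9-DL, 277.8 in OP9-GFP and 418.3 in OP9) were highest in OP9. Col1a1 was lowest there (557.0 in OP9-DL, 712.9 in OP9-GFP and 269.3 in OP9). Col3a1 (195.9 in OP9-DL, 936.4 in OP9-GFP and 660.5 in OP9) and Cxcl12 (1997.4 in OP9-DL, 4411.3 in OP9-GFP and 3720.4 in OP9) were lowest in OP9-DL, Vcam1 was lowest in OP9-GFP, Lum was close to the brightness limit, and Thy1 and Dcn were too dim to compare. Of 6 leukocyte markers, 2 were bright enough to compare, and the summed intensity of all 6 was 163 in OP9-DL cells, 40.6 in OP9-GFP cells and 38.8 in OP9 cells. Cd48 supplied most of the OP9-DL sum, and Ptprc (CD45) was below the brightness limit on all 3 arrays. For 6 mast cell markers the sums were 834 in OP9-DL, 22.1 in OP9-GFP and 40.3 in OP9, nearly all of the first from Tpsab1, with Kit blank on the OP9-DL and OP9-GFP arrays. Fat cell markers differed among themselves: Adipoq was lowest in OP9 (146.7 in OP9-DL, 495.9 in OP9-GFP and 29.0 in OP9), whereas Fabp4 was nearly level (8539.4 in OP9-DL, 8033.0 in OP9-GFP and 9435.7 in OP9) and Plin1 was lowest in OP9-DL (15.2 in OP9-DL, 27.2 in OP9-GFP and 23.7 in OP9). Of the bone markers, Alpl was lowest in OP9-DL (15.1 in OP9-DL, 101.3 in OP9-GFP and 91.6 in OP9) and Sp7 was nearly level (7.5 in OP9-DL, 9.7 in OP9-GFP and 8.7 in OP9). The part of these markers in the differences below was not tested.

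Id2 was the member of the Id family that differed most between the lines. Its intensity was 3231.3 in OP9-DL cells, 2162.9 in OP9-GFP cells and 918.6 in OP9 cells. Both lines with GFP thus stood well above OP9, and OP9-DL stood highest. Id2 was 3.52-fold higher in OP9-DL than in OP9, a log2 difference of 1.81 that 1.01% of all compared probes reached or passed. It was 2.35-fold higher in OP9-GFP than in OP9 and 1.49-fold higher in OP9-DL than in OP9-GFP. In a bulk sample, a change in how many cells express a gene cannot be told apart from a change in RNA per cell.

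Id1 and Id3, the Id genes most closely tied to BMP signalling in many cell types, were also higher in both lines with GFP than in OP9, but by less than 2-fold. Id1 had intensities of 3333.9 in OP9-DL cells, 3569.6 in OP9-GFP cells and 2369.1 in OP9 cells. Its folds were 1.41 for OP9-DL against OP9, 1.51 for OP9-GFP against OP9 and 0.934 for OP9-DL against OP9-GFP, so the lines with GFP lay close together. Id3 had 4830.5 in OP9-DL, 4086.5 in OP9-GFP and 3035.0 in OP9 and was 1.59-fold higher in OP9-DL and 1.35-fold higher in OP9-GFP than in OP9. Id4, which in some settings acts against the other Id proteins, was somewhat higher in OP9-DL and nearly level in the other lines. It had 226.3 in OP9-DL cells, 162.4 in OP9-GFP cells and 159.8 in OP9 cells. Its OP9-GFP and OP9 values differed by 1.02-fold, and OP9-DL was 1.39-fold above OP9-GFP and 1.42-fold above OP9. Differences of these sizes were common: in OP9-DL against OP9, 16.9% of compared probes were at least as high as Id1, 10.3% as Id3 and 16.5% as Id4. In OP9-DL against OP9-GFP, 11.4% were at least as high as Id4.

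The Id genes were all higher in OP9-DL than in OP9, by unequal amounts, and all but Id4 were higher in OP9-GFP than in OP9. All 4 were above 0 on the log2 scale in OP9-DL against OP9 (median 0.59, against 0.02 for all compared probes). In OP9-GFP against OP9 the median was 0.51, against 0.02. Id4 lay at 0.02 there, level with all compared probes, of which 50% were at least as high. Both comparisons share the OP9 array, so a single low reading on that array would enter both. The fold of Id2 in OP9-DL against OP9 was 2.50 times that of Id1, 2.21 times that of Id3 and 2.48 times that of Id4. In OP9-DL against OP9-GFP, 3 of the 4 were above 0, with a median of 0.36.

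**Figure D1:**
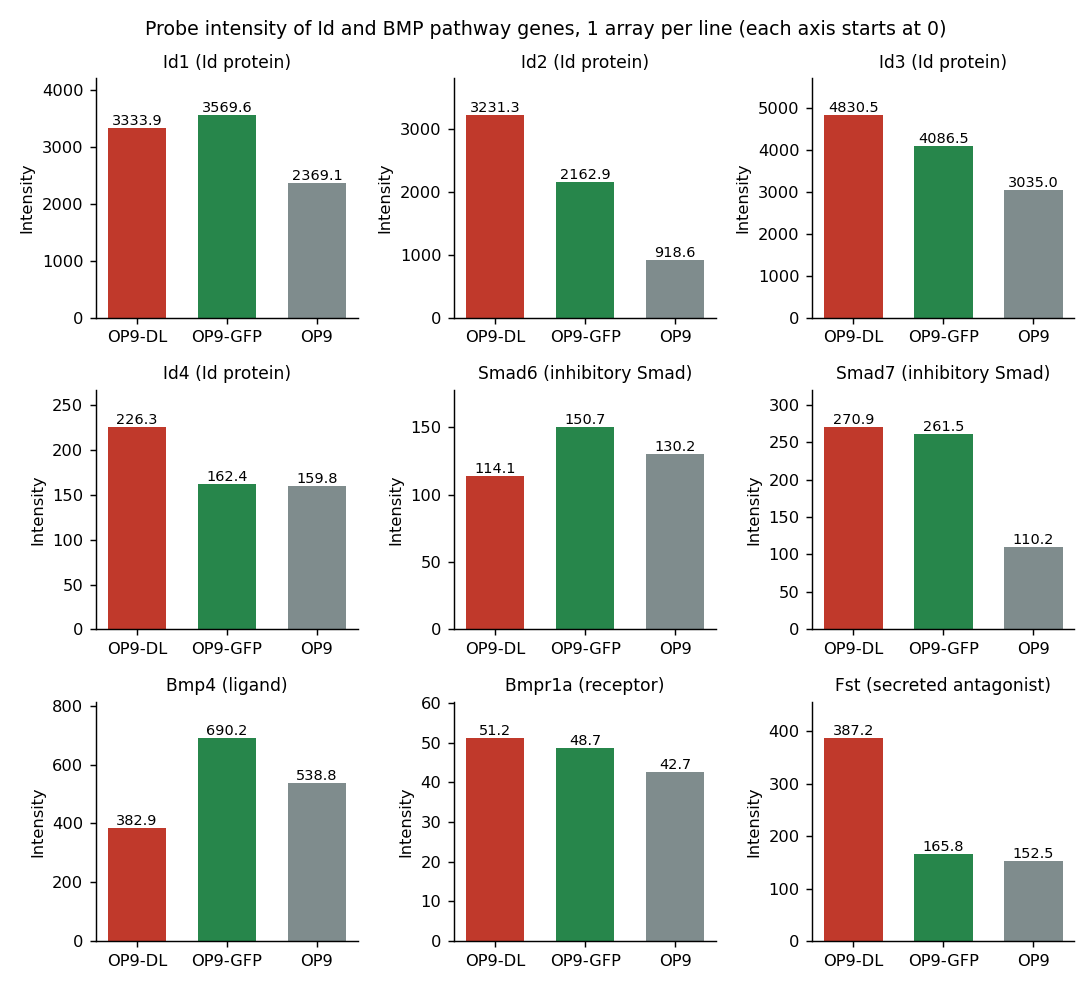
Deposited probe intensity (linear, each axis from 0) of the 9 measured genes on the OP9-DL, OP9-GFP and OP9 arrays, 1 bar per array and no error bars because each line has 1 array. Id2 and Smad7 are lowest on the OP9 array (918.6 and 110.2), while Fst is highest on the OP9-DL array (387.2) and close on the other two.

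The inhibitory Smads did not move alike. Smad7, which blocks both BMP and TGF-beta receptors, had intensities of 270.9 in OP9-DL cells, 261.5 in OP9-GFP cells and 110.2 in OP9 cells. The lines with GFP lay within 1.04-fold of each other, and Smad7 was 2.46-fold higher in OP9-DL and 2.37-fold higher in OP9-GFP than in OP9. Smad6, which acts mainly on BMP receptors, had 114.1 in OP9-DL, 150.7 in OP9-GFP and 130.2 in OP9, and OP9-DL was the lowest of the lines. Smad6 stayed within 1.32-fold over the 3 arrays. The fold of Smad7 was 2.80 times that of Smad6 in OP9-DL against OP9 and 2.05 times in OP9-GFP against OP9, but 1.37 times in OP9-DL against OP9-GFP.

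Bmp4, the BMP ligand of the set, was lowest in the line with Delta-like 1. Its intensity was 382.9 in OP9-DL cells, 690.2 in OP9-GFP cells and 538.8 in OP9 cells. OP9-DL stood at 0.555 of OP9-GFP, a log2 difference of -0.85 that is short of 2-fold and that 3.71% of compared probes reached or passed downwards. It stood at 0.711 of OP9, and OP9-GFP was 1.28-fold above OP9. Bmpr1a, the type I receptor ALK3 through which BMP4 signals, varied least of the 9 genes. It had 51.2 in OP9-DL, 48.7 in OP9-GFP and 42.7 in OP9, a range of 1.20-fold.

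Fst was the gene of the set that differed most between OP9-DL and OP9-GFP. Follistatin, its product, traps activins tightly and some BMPs more weakly. Its intensity was 387.2 in OP9-DL cells, 165.8 in OP9-GFP cells and 152.5 in OP9 cells. OP9-GFP and OP9 lay within 1.09-fold, and OP9-DL was 2.34-fold above OP9-GFP and 2.54-fold above OP9. In OP9-DL against OP9-GFP, 1.34% of compared probes had a difference as high.

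Few of the 9 genes passed 2-fold, and those that did were all on the high side. In OP9-DL against OP9-GFP, Fst alone of 9 genes was at least 2-fold higher and 0 were lower, where 2.31% of all compared probes were higher and 2.72% lower. In OP9-GFP against OP9, Id2 and Smad7, 2 of 9, were higher and 0 lower, where 4.86% of probes were higher and 6.75% lower. In OP9-DL against OP9, Id2, Smad7 and Fst, 3 of 9, were higher and 0 lower, where 4.31% of probes were higher and 6.91% lower. In that last comparison 38.4% of the probes past 2-fold were on the high side, and 52% were with the arrays scaled to the same median over the compared probes. The median log2 difference of the 9 genes was 0.07, 0.36 and 0.50 in these 3 comparisons, against -0.02, 0.02 and 0.02 for all compared probes. With 9 genes, a single gene moves such a share by a wide margin.

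**Figure D2:**
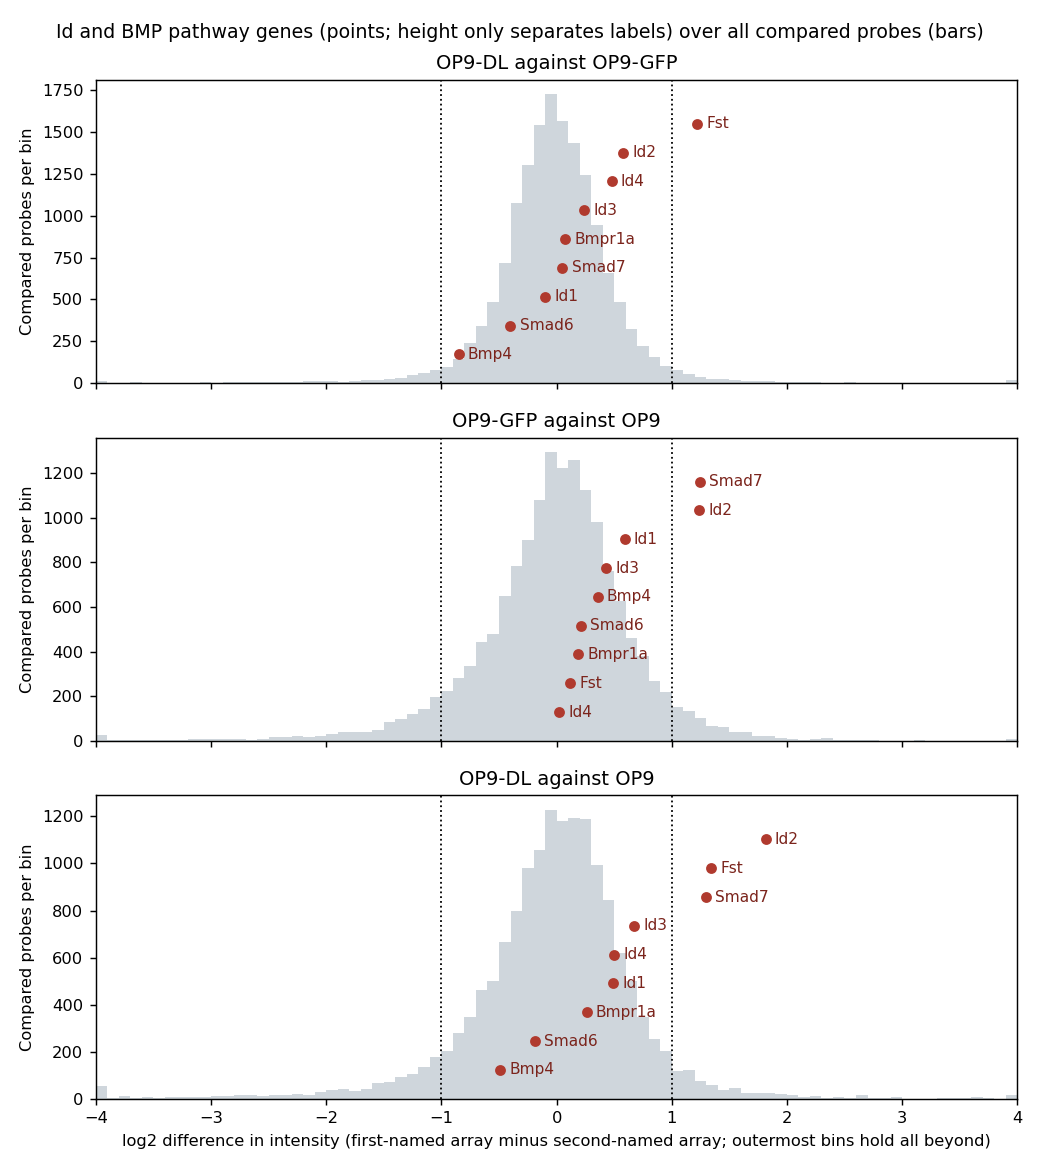
Histograms of the log2 difference in intensity over the 15581 compared probes in each comparison, with the 9 genes as points whose height only separates their labels and dotted lines at 2-fold. Fst lies past 2-fold in the top panel, Id2 and Smad7 in the middle one, and all 3 in the bottom one.

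The patterns of Id2, Smad7 and Fst, whose ranges exceeded 2-fold, were also found in other genes. Likeness was measured as the largest gap, over the 3 arrays, between log2 intensities centred on each probe's mean. Nearest to Id2 were Pim1, a serine/threonine kinase (71.5 in OP9-DL, 49.3 in OP9-GFP and 21.0 in OP9, gap 0.03), and Serpinb1b, a protease inhibitor (14.2 in OP9-DL, 9.5 in OP9-GFP and 4.2 in OP9, gap 0.04). The OP9 reading of Serpinb1b was under the brightness limit, so its gap is not firm. Nearest to Smad7 were Fancb, of the Fanconi anaemia DNA repair complex (130.1 in OP9-DL, 128.3 in OP9-GFP and 53.8 in OP9, gap 0.02), and Plaur, the urokinase receptor (1070.1 in OP9-DL, 1042.9 in OP9-GFP and 428.0 in OP9, gap 0.02). Nearest to Fst were Osr1, a zinc finger factor of embryonic mesenchyme (1026.8 in OP9-DL, 416.3 in OP9-GFP and 392.3 in OP9, gap 0.04), and Rps6ka1, a ribosomal S6 kinase (67.2 in OP9-DL, 28.7 in OP9-GFP and 27.6 in OP9, gap 0.04). Within a wider gap of 0.25 over these 3 arrays lay 66 compared probes (0.424%) for Id2, 306 (1.96%) for Smad7 and 89 (0.571%) for Fst.

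The wider pathway was read from 10 lists with 121 genes, of which 110 had a probe and 76 were bright enough to compare. In OP9-DL against OP9-GFP, 2 of the 76 were at least 2-fold higher and 1 was lower. In OP9-GFP against OP9, 9 were higher (11.8%) and 7 lower (9.21%), and in OP9-DL against OP9, 5 were higher (6.58%) and 10 lower (13.2%), to be read beside the shares of all probes given above. The medians were -0.12, 0.06 and -0.06 in these comparisons. Of the lower genes, Bmp8a, Dlx3 and Cdkn1c read under the brightness limit in both lines with GFP. These genes were compared only because of their OP9 reading, and Tgfbr3 read under the limit in OP9-DL. With the limit at the 50th percentile, which leaves fewer genes, 7 were higher and 3 lower in OP9-GFP against OP9. In OP9-DL against OP9, 4 were then higher and 5 lower. Of the probes left by that limit, 5.28% were higher and 7.25% lower in the former, and 4.18% and 7.37% in the latter. Counts within single lists below are at 2-fold and are to be read beside the shares of all probes at 2-fold.

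Among ligands, few were bright. Of 20 BMP and GDF ligands beside Bmp4, 6 were compared, and Bmp8a alone was past 2-fold. It had 4.8 in OP9-DL cells, 4.2 in OP9-GFP cells and 14.1 in OP9 cells, so both lower readings were under the brightness limit. Activin and inhibin subunits pair into the activins that follistatin traps and the inhibins that oppose them. Inhba, the beta A subunit of activin, had 270.2 in OP9-DL, 375.2 in OP9-GFP and 139.9 in OP9. It was 2.68-fold higher in OP9-GFP and 1.93-fold higher in OP9-DL than in OP9. Inha, the inhibin alpha subunit, had 13.7 in OP9-DL, 6.5 in OP9-GFP and 7.7 in OP9, close to the limit, and was 2.11-fold higher in OP9-DL than in OP9-GFP. None of the 3 TGF-beta ligands reached 2-fold, and Tgfb2, the brightest, had 137.3 in OP9-DL, 114.5 in OP9-GFP and 166.1 in OP9.

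The receptors and signalling Smads mostly lay within 2-fold. Of 8 receptors and co-receptors compared, Tgfbr2, the type II TGF-beta receptor, was 2.12-fold lower in OP9-DL than in OP9 (77.2 in OP9-DL, 107.5 in OP9-GFP and 163.3 in OP9). Tgfbr3, the co-receptor betaglycan, was 2-fold lower in OP9-GFP than in OP9 and lower still in OP9-DL, where its reading was under the brightness limit (5.6 in OP9-DL, 8.7 in OP9-GFP and 17.4 in OP9). None of the 5 signalling Smads compared reached 2-fold in any comparison. Smad3 was too dim to compare (6.6 in OP9-DL, 7.7 in OP9-GFP and 3.6 in OP9). Smad4, the shared partner, had 188.9 in OP9-DL, 183.1 in OP9-GFP and 162.7 in OP9. Of the Smads that BMP receptors phosphorylate, Smad1 had 17.1 in OP9-DL, 22.2 in OP9-GFP and 27.7 in OP9. Smad5 had 17.3 in OP9-DL, 24.7 in OP9-GFP and 24.9 in OP9. OP9-DL was the lowest line for both, whereas for Smad9 it was OP9, with 10.7 in OP9-DL, 10.2 in OP9-GFP and 7.5 in OP9.

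The secreted modulators differed in both directions between the lines with GFP and OP9. Of 11 compared, 4 were higher and 1 lower in OP9-GFP than in OP9, 2 were higher and 2 lower in OP9-DL than in OP9, and 0 of 11 reached 2-fold in OP9-DL against OP9-GFP. Of all compared probes, 4.86%, 4.31% and 2.31% were higher in these comparisons, in that order, and 6.75%, 6.91% and 2.72% lower. With 11 genes, a single gene moves the share widely. Fstl3, a relative of follistatin that binds activin and myostatin, had 337.4 in OP9-DL cells, 315.4 in OP9-GFP cells and 143.2 in OP9 cells. Fstl3 was thus 2.36-fold higher in OP9-DL and also past 2-fold in OP9-GFP, each against OP9, whereas Fst was higher in OP9-DL alone. Tll1, a protease of the tolloid group that cleaves the antagonist chordin, had 36.4 in OP9-DL, 27.6 in OP9-GFP and 7.5 in OP9, and was 4.85-fold higher in OP9-DL and 3.68-fold higher in OP9-GFP than in OP9. Its relative Bmp1 ran the other way (14.6 in OP9-DL, 27.1 in OP9-GFP and 36.2 in OP9), at 2.48-fold lower in OP9-DL than in OP9. Bmper, an extracellular BMP modulator, had 35.1 in OP9-DL, 57.6 in OP9-GFP and 17.9 in OP9 and was 3.22-fold higher in OP9-GFP and 1.96-fold higher in OP9-DL than in OP9. Htra1, a secreted protease, had 14.4 in OP9-DL, 21.5 in OP9-GFP and 9.5 in OP9 and was 2.26-fold higher in OP9-GFP and 1.52-fold higher in OP9-DL than in OP9. Nbl1, a BMP antagonist of the gremlin family, had 15.1 in OP9-DL, 21.4 in OP9-GFP and 53.7 in OP9 and was 3.56-fold lower in OP9-DL and 2.51-fold lower in OP9-GFP than in OP9. Noggin (Nog), the best-known BMP antagonist, stayed within 2-fold (35.7 in OP9-DL, 32.6 in OP9-GFP and 23.0 in OP9).

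Inside the cell, Pmepa1, a TGF-beta induced inhibitor that sequesters receptor-regulated Smads, was, like Smad7, higher in both lines with GFP. It had 2195.6 in OP9-DL cells, 1859.8 in OP9-GFP cells and 774.1 in OP9 cells, and was 2.84-fold and 2.40-fold higher in OP9-DL and OP9-GFP than in OP9. Tob1, an antiproliferative protein that represses BMP Smads, was 2.24-fold and 2.70-fold lower in OP9-DL and OP9-GFP than in OP9 (165.3 in OP9-DL, 137.0 in OP9-GFP and 369.9 in OP9). Its relative Tob2 was 2.15-fold higher in OP9-DL than in OP9 (39.1 in OP9-DL, 31.6 in OP9-GFP and 18.2 in OP9), and Smurf1, a ubiquitin ligase for BMP Smads and receptors, was 2.26-fold lower (8.2 in OP9-DL, 11.0 in OP9-GFP and 18.5 in OP9). The other members of this list of 12 compared genes did not reach 2-fold in any comparison, among them Bambi, a decoy receptor, with 34.2 in OP9-DL, 34.8 in OP9-GFP and 34.3 in OP9.

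Other BMP target genes lay on both sides of 0. Of 14 compared, 1 was higher and 1 lower both in OP9-GFP against OP9 and in OP9-DL against OP9, and 0 reached 2-fold in OP9-DL against OP9-GFP. Each count of 1 is 7.14% of the list, near the shares of all compared probes. Those were 4.86% higher and 6.75% lower in OP9-GFP against OP9, and 4.31% and 6.91% in OP9-DL against OP9. Atoh8, a BMP-induced helix-loop-helix factor, had 543.2 in OP9-DL cells, 589.7 in OP9-GFP cells and 510.0 in OP9 cells. Hes1, which is a Notch target as well, had 112.3 in OP9-DL, 176.9 in OP9-GFP and 55.9 in OP9, and was 2.01-fold higher in OP9-DL and 3.16-fold higher in OP9-GFP than in OP9. Dlx3, a homeobox factor of bone and skin, had 3.8 in OP9-DL, 4.5 in OP9-GFP and 27.7 in OP9, with both lines with GFP below the brightness limit. The median of the list was 0.02 in OP9-DL against OP9 and 0.16 in OP9-GFP against OP9, against 0.02 and 0.02 for all compared probes.

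Genes for the proteins that Id factors bind mostly lay within 2-fold. Of 7 E proteins and tissue-specific factors compared, 1 was past 2-fold: Scx, scleraxis, a factor of tendon cells, had 37.2 in OP9-DL, 64.8 in OP9-GFP and 20.5 in OP9 and was 3.16-fold higher in OP9-GFP than in OP9. In that comparison 4.86% of all compared probes were higher. Tcf3, the E protein E2A, named Tcfe2a on the array, had 209.5 in OP9-DL cells, 207.1 in OP9-GFP cells and 230.3 in OP9 cells. Probes that the array itself calls Tcf3 and Tcf4 were left out, since these names have also been used for genes of the Wnt pathway. The last list was of genes taken to be regulated by E proteins or Ets factors and opposed by Id proteins, and 6 were compared. Of these, 1 was higher and 1 lower in OP9-DL against OP9-GFP, and 1 was higher and 2 lower in OP9-GFP against OP9. In OP9-DL against OP9, 0 were higher and 2 lower. Of all compared probes, 2.31%, 4.86% and 4.31% were higher in these comparisons, in that order, and 2.72%, 6.75% and 6.91% lower. With 6 genes such counts say little about the list. Whether Id proteins act on these genes in OP9 cells was not tested. Cdkn1c, the cell cycle inhibitor p57, had 3.2 in OP9-DL, 4.7 in OP9-GFP and 41.8 in OP9, below the brightness limit in both lines with GFP. Cdkn2a, which encodes both p16 and ARF, was 6.50-fold lower in OP9-GFP than in OP9 and 3.96-fold higher in OP9-DL than in OP9-GFP (38.8 in OP9-DL, 9.8 in OP9-GFP and 63.7 in OP9). Its probe is labelled by gene only, so the value cannot be assigned to p16. Thbs1, thrombospondin-1, had 172.5 in OP9-DL, 590.6 in OP9-GFP and 216.6 in OP9, with OP9-GFP apart, and Srebf1, a lipid synthesis factor, had 31.0 in OP9-DL, 59.6 in OP9-GFP and 70.1 in OP9. The remaining 2, the cell cycle inhibitor Cdkn1a (487.2 in OP9-DL, 315.7 in OP9-GFP and 470.4 in OP9) and the factor Ets2 (39.9 in OP9-DL, 53.5 in OP9-GFP and 35.6 in OP9), did not reach 2-fold, and the 6 genes had no order of the lines in common.

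**Figure D3:**
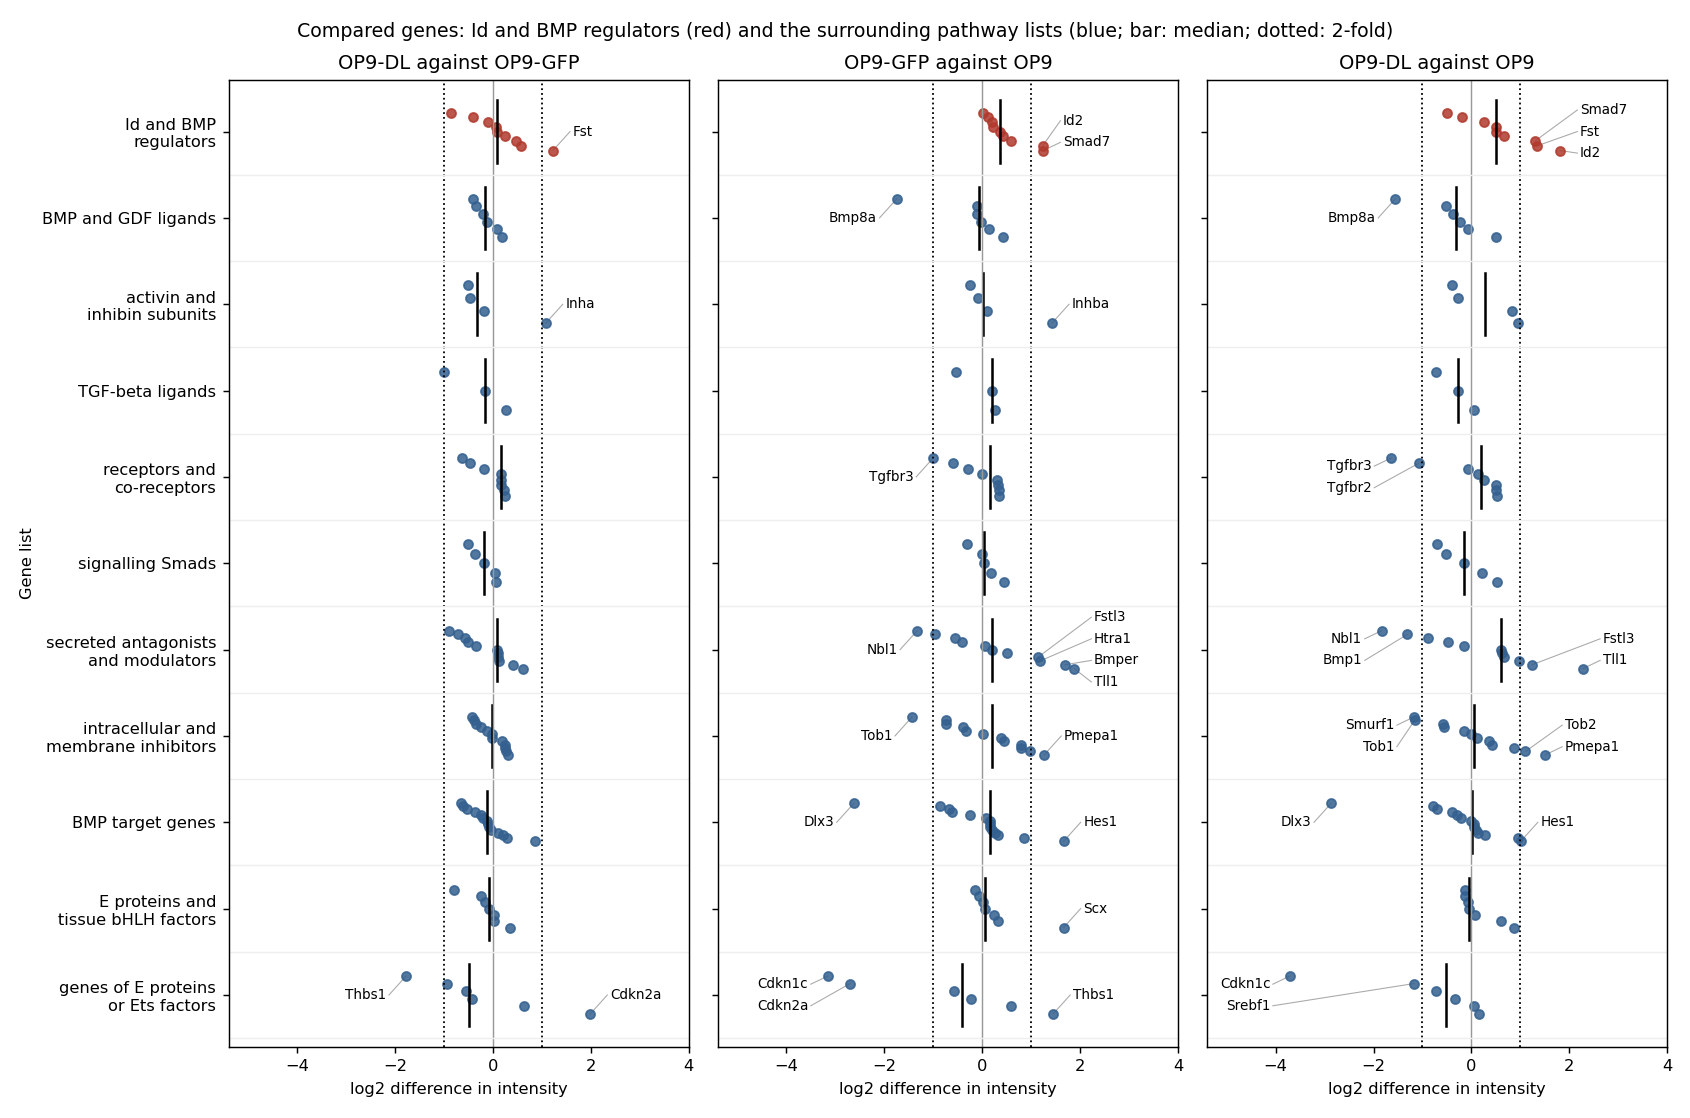
Log2 difference in intensity of each compared gene (points) in the 9 measured Id and BMP regulators (red) and the 10 surrounding lists (blue), with the list median as a bar, dotted lines at 2-fold and names for genes past them. Few genes pass 2-fold in OP9-DL against OP9-GFP, and genes lie past it on both sides in the other comparisons.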

How the data were processed

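Total RNA of each line was turned into Cy5-labelled amplified RNA and processed with the Toray procedure, 1 colour per array, per the labels' protocols. The deposited values are linear probe intensity, and their equal median of 20 on every array shows the scale the authors used. The scanner, the background correction and the reason for blank cells were not stated in the sources used here. Blank cells made up 6.32% to 6.62% of an array, and the number of arrays, 3, limits the precision.

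No further normalization was applied, and log2 was taken with no constant. Of 20775 probes with a value on all arrays, the 15581 at or above the 25th percentile of mean log2 intensity were compared. The platform's gene table named 16631 of 23473 probes, with symbols updated through a GRCm38.p6 gene table, in which 3947 were renamed. Genes with several compared probes took their mean. A gene was counted as higher or lower at 2-fold or more. The genes, lists and rules were chosen with earlier results of these data known. Named genes were every member, pathway genes past 2-fold in some comparison or the brightest of a list with none, and the 2 nearest patterns. Bambi, Atoh8, Nog, Smad1, Smad3, Smad5, Smad9, Msx2, Tcf3, Cdkn1a and Ets2 were named after their values were seen, as were the markers. The counting was run on simulated arrays with set folds and a chosen noise level. That run checks the calculation only and does not show how reliable a 2-fold difference is on the real arrays. Python 3.11.15, numpy 2.4.6, pandas 2.3.3, statsmodels 0.14.6 and matplotlib 3.10.9 were used.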

Additional observations from a re-analysis of the deposited data

How the results depend on the processing

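The arrays were rescaled by quantiles, by the median of the compared probes and by lowess with a span of 0.3. Other alternatives dropped the brightness limit or moved it to the 50th percentile, added 2.2 to each intensity, filled blank cells with the lowest value of their array, used only the brightest probe of a gene, and set the threshold at 1.5-fold or 3-fold. For the 9 measured Id and BMP regulators, all 216 log2 differences recomputed under settings other than the thresholds kept their sign and their side of 2-fold. Many of these 216 could not have changed, since each gene has 1 bright probe with a value on every array. Only the rescalings and the added constant could move them, and the settings for the brightness limit, blank cells and brightest probe repeat the main value. Id2 in OP9-DL against OP9 ranged from 1.75 to 1.94, Smad7 from 1.28 to 1.42, and Fst in OP9-DL against OP9-GFP from 1.21 to 1.28. The threshold itself changed their counts: at 3-fold, 0 were higher in OP9-DL against OP9-GFP, 0 in OP9-GFP against OP9 and 1, Id2, in OP9-DL against OP9, and at 1.5-fold Bmp4 became the 1 gene lower in OP9-DL against OP9-GFP. Median scaling raised the median difference of all compared probes in OP9-DL against OP9 to 0.14, against 0.02 as deposited.

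For the pathway lists, these settings were applied after seeing the data, and 542 of 552 log2 differences kept their side of 2-fold. The 552 cover only pathway genes past 2-fold in some comparison as deposited, with Tgfb2 and Smad4. Other genes that newly passed 2-fold, such as Tgfb1 and Dlx2, are not among them. Here too, for the same reason, many of the 552 could not have changed. At 1.5-fold, 5 of the 76 pathway genes were higher and 9 lower in OP9-DL against OP9-GFP, 14 and 14 in OP9-GFP against OP9, and 15 and 16 in OP9-DL against OP9. Of all compared probes, 7.74%, 13.9% and 13.2% were higher at 1.5-fold in these comparisons, in that order, and 8.43%, 15.4% and 15.6% lower. At 3-fold, 1 was higher and 1 lower in the first, 4 were higher and 4 lower in the second, and 1 was higher and 4 lower in the third. The shares of all compared probes at 3-fold were 0.706%, 1.21% and 1.39% higher, and 1.06%, 2.36% and 2.82% lower. With the limit at the 50th percentile, which leaves fewer genes, 1 was higher and 1 lower in the first, 7 higher and 3 lower in the second, and 4 higher and 5 lower in the third. With no limit, 11 were higher in the second, where the dim genes Smad3 and Msx2 were added. With blank cells filled, 10 were higher there, where Smad3 was added. The constant left 1 higher in the first (Inha fell short), quantile and lowess scaling gave 2 lower there (Tgfb1 was added), and median scaling gave 8 higher in the third (Bmper, Inhba and Dlx2 were added, of which Inhba and Dlx2 also under quantile scaling and Dlx2 also under lowess scaling). Hes1 (0.98) and Smurf1 (-0.99) in the third, and Tgfbr3 in the second (-0.85), fell short of 2-fold with the constant, Tgfbr3 also under median scaling (-0.92), and Tgfbr2 in the third did so under quantile (-0.97) and median scaling (-0.96). No paired analysis was possible because each line has 1 array. Dim readings, below about 6.13, give a direction but no firm fold.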
